A study of Mus musculus with 15 samples.

Results

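Ventricles of mice given angiotensin II together with oleic acid were compared with ventricles of mice given saline, to see which transcripts still stood apart from untreated hearts when both agents were present. The comparison used 10 of the 15 libraries of the series, 5 AngII plus OA and 5 vehicle. It used 13121 of the 36653 gene identifiers in the table, those with a mean of at least 0.5 FPKM over the 15 libraries (fragments per kilobase of gene, scaled to library size, a level that allows for gene length). All mice were wild-type C57BL/6 animals aged 10 weeks. Vehicle mice were treated with saline. AngII plus OA mice carried a subcutaneous pump that released angiotensin II (AngII) at 1000 ng/kg/min, and were treated with oleic acid (OA) at 160 mg/kg, in 0.3 mL per mouse each day. The remaining group, 5 AngII mice, carried the pump without OA, and its values are shown beside the others. No group received OA without the pump, so an effect of OA on hearts without AngII was not measured. The length of the treatment is not given in the labels. Each library came from poly(A) RNA of 1 biological replicate.

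Angiotensin II is a peptide hormone that constricts arteries and also acts on heart muscle cells and fibroblasts. A heart that pumps against a higher pressure is stretched. Its muscle cells then raise genes of the Z-disc, the plate that anchors actin filaments and passes force between sarcomeres, together with genes otherwise typical of the fetal heart, while its fibroblasts lay down collagen and other matrix proteins. Oleic acid is a monounsaturated fatty acid and one of the main fuels of the heart.

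The libraries held heart muscle RNA, but the cardiomyocyte and T cell sums given here cannot tell ventricle from atrium. The summed level of 14 cardiomyocyte markers was 29549 to 36469 FPKM in vehicle and 33890 to 39078 FPKM in AngII plus OA. The 7 T cell markers together never passed 4.93 FPKM. Atrial RNA differed widely among the libraries. The 9 atrial markers summed to 31.6 to 799 FPKM in vehicle and to 65.4 to 716 FPKM in AngII plus OA. Myl7, a myosin light chain made in the atria, was at 1.56 to 451 FPKM in vehicle and at 1.05 to 411 FPKM in AngII plus OA. Mitochondrially encoded genes took 45.3%, 45.8%, 44.6%, 50.02% and 49.5% of all FPKM in vehicle replicates 1 to 5, and 40.9%, 43.0%, 47.0%, 38.6% and 42.6% in AngII plus OA replicates 1 to 5. In AngII plus OA, 4 of the 5 libraries were below every vehicle library. The mean share was 47.1% ± 2.52 in vehicle and 42.4% ± 3.10 in AngII plus OA (SD, n = 5 each, exact permutation test, 2-sided, p = 0.0397). Without 1 library the p of that test ran from 0.00794 to 0.0873, and it was above 0.05 in 7 of the 10 cases. FPKM is scaled to library size, so the amount of this RNA can move the level of every other gene. The share given here is of summed FPKM and not of reads.

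AngII plus OA replicates 2 and 5 stood apart in the genes described here. Replicate 2 had the value farthest from vehicle in 9 of the 12 genes with the smallest p. Replicate 5 had 0 of 45 matrix genes above every vehicle library, but 16 of 30 Z-disc genes, against 9.84% of all genes. AngII replicate 2 also stood apart. Its cardiomyocyte markers summed to 18096 FPKM, against 29273 to 34325 FPKM in the other AngII libraries, and its atrial and adipocyte markers to 3185 and 316 FPKM. All values under AngII alone include that library.

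No gene passed the test of AngII plus OA against vehicle. Of 13121 genes, 0% were called by limma at a Benjamini-Hochberg adjusted p under 0.05, and the smallest adjusted p was 0.926. At an unadjusted p under 0.05 stood 441 genes, or 3.36%, of which 338 were higher and 103 lower in AngII plus OA. That split depended on scaling. It was 266 to 174 after quantile normalization, 267 to 152 with each library shifted to 1 median, and 151 to 315 with FPKM rescaled without the mitochondrially encoded genes. The 5 treated and 5 vehicle libraries did not overlap in 110 genes (0.838%), of which 86 were higher (0.655%) and 24 lower (0.183%). If the groups did not differ, a fraction of about 0.0079 of genes would separate in either direction with 5 against 5 libraries. The total of 110 is therefore no evidence of a difference. In the same fit AngII alone against vehicle called 197 genes, or 1.5%, 166 higher and 31 lower. Both comparisons use the same 5 vehicle libraries. AngII plus OA against AngII called 0 genes (smallest adjusted p = 0.574, with 866 genes at an unadjusted p under 0.05). A difference between the treated groups is therefore given below only as a value with its interval.

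The median 95% interval of a difference reached 0.30 to either side on the log2(FPKM + 1) scale, on which all differences below are given. That interval is not adjusted for the number of genes tested, and differences larger than that were not called either. Over all genes tested the median difference from vehicle was 0.02, and 58.3% of genes were higher. Because nothing was called, the accounts below describe levels, intervals and whether libraries overlapped. All adjusted p-values of genes in this comparison were 0.926 or more. In whole tissue, fewer cells of a type and less RNA per cell cannot be told apart.

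The markers of the comparison were 5 genes, Ankrd1, Enah, Des, Hspb7 and Rasl11b. They were chosen with earlier results of these libraries known, so that their levels are a description. In each of them all 5 AngII plus OA libraries were above all 5 vehicle libraries.

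Ankrd1 (ENSMUSG00000024803) encodes a titin-binding ankyrin repeat protein that is raised in stretched heart muscle. It was at 461, 286, 401, 399 and 222 FPKM in vehicle replicates 1 to 5 and at 796, 1474, 762, 729 and 498 FPKM in AngII plus OA replicates 1 to 5. The lowest treated library, replicate 5, was just above the highest vehicle library. The mean was 2.41-fold higher (354 ± 97.1 against 852 ± 367 FPKM, SD, n = 5 each), and the difference was 1.22 (95% interval 0.68 to 1.76). Ankrd1 was at 941 to 1466 FPKM under AngII alone, where it rose by 1.66 (adjusted p = 0.0114). AngII plus OA was below AngII by -0.44, with an interval from -0.98 to 0.10 that includes 0.

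Rasl11b (ENSMUSG00000049907), a small Ras-like GTPase, was at 8.13, 6.95, 7.63, 5.86 and 5.46 FPKM in vehicle and at 16.1, 16.2, 11.5, 12.2 and 31.2 FPKM in AngII plus OA. The highest of these, 31.2 FPKM, belonged to replicate 5, the library whose Ankrd1 was lowest. The difference was 1.16 (0.63 to 1.70), and 0.94 without that library. Under AngII alone the gene was at 6.34 to 16.3 FPKM and overlapped vehicle, with a difference of 0.67 that did not pass (adjusted p = 0.193). The treated groups differed by 0.50 (-0.04 to 1.03).

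Enah (ENSMUSG00000022995) encodes an actin polymerase of the Ena/VASP family that sits at the intercalated disc. It was at 7.28, 4.59, 6.16, 5.20 and 4.16 FPKM in vehicle and at 10.1, 14.2, 8.90, 9.61 and 12.5 FPKM in AngII plus OA. No treated library came below 8.90 FPKM and no vehicle library passed 7.28 FPKM. The difference was 0.90 (0.49 to 1.31). It was 0.76 under AngII alone (adjusted p = 0.0665). Of the 34 genes of actin assembly and the intercalated disc, 21 were higher, with a median of 0.04. The median was 0.00 without vehicle replicate 5 and 0.10 without vehicle replicate 3 or 4. Enah, itself a marker, was the only one of these genes without overlap, against 0.655% of all genes in that direction.

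Des (ENSMUSG00000026208) encodes desmin, the intermediate filament that links Z-discs. It was at 447, 491, 398, 357 and 364 FPKM in vehicle and at 576, 918, 545, 594 and 595 FPKM in AngII plus OA. Replicate 2 was far above the other treated libraries, which lay between 545 and 595 FPKM. The difference was 0.63 (0.32 to 0.95), or 0.50 without replicate 2, and AngII alone gave a rise of 0.68 (adjusted p = 0.0335). An antisense gene overlaps Des, and the strand setting of the counting is not given in the sources used here.

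Hspb7 (ENSMUSG00000006221), a small heat shock protein of heart and skeletal muscle, was at 643, 580, 486, 435 and 384 FPKM in vehicle and at 921, 1259, 793, 791 and 669 FPKM in AngII plus OA. Replicate 5 was the lowest treated library and was next to the highest vehicle library. The difference was 0.80 (0.39 to 1.21) and was 0.71 under AngII alone (adjusted p = 0.0812). The intervals of AngII plus OA against AngII included 0 for all 5 genes, at 0.14 (-0.27 to 0.55) for Enah, -0.05 (-0.36 to 0.27) for Des and 0.09 (-0.31 to 0.50) for Hspb7.

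**Figure D1:**
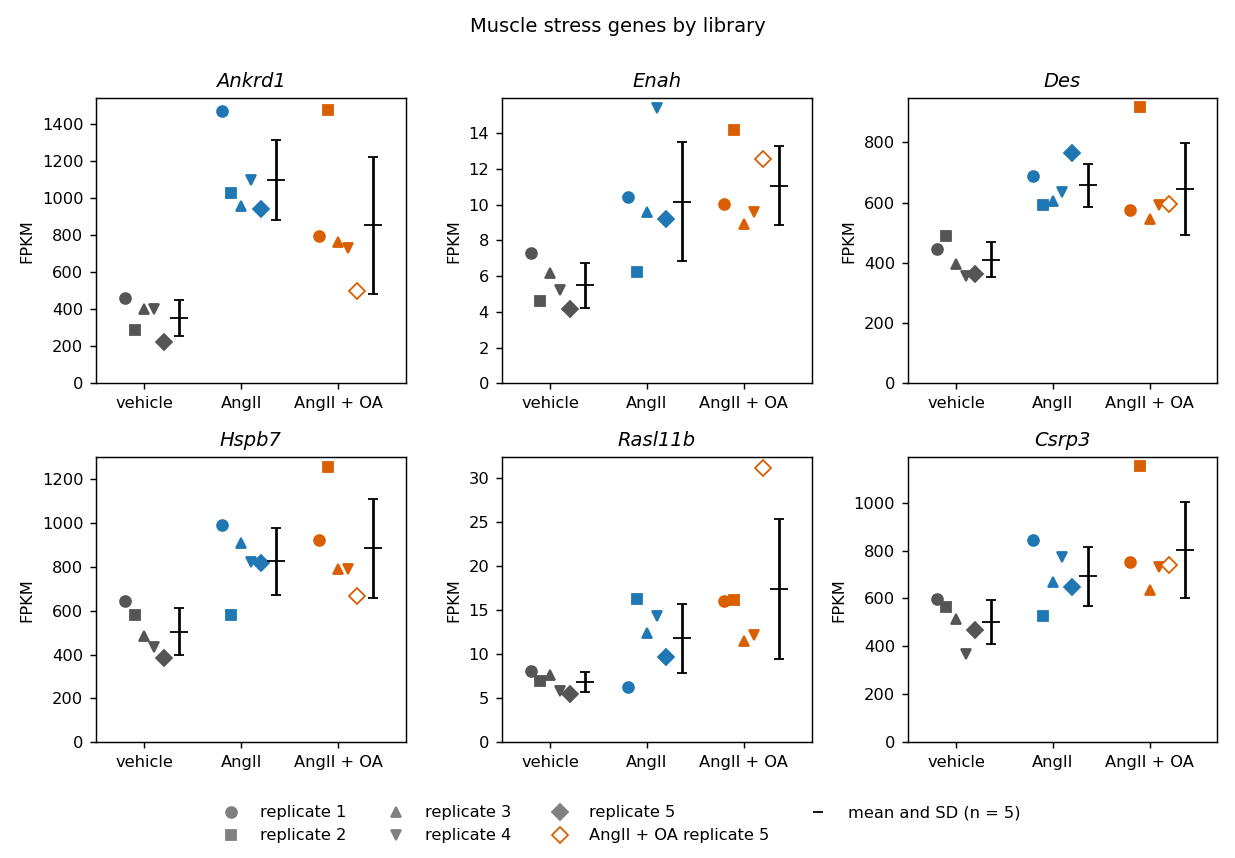
FPKM of 6 muscle genes in each library of the vehicle, AngII and AngII plus OA groups, with the mean and SD of 5 libraries beside each group. Every AngII plus OA library is above every vehicle library in all 6 genes, and replicate 2 is the highest treated library in 5 of them.

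Promoter sequences were examined for the 5 genes because they were higher together. The window held the 180 bases from 250 to 71 before the RefSeq start of each gene (GRCm38.p6). It was searched on both strands for the M-CAT element CATTCC, bound by TEAD factors, for the E-box CANNTG, for the CArG box of serum response factor and for the MEF2 site. The GC box GGGCGG was searched as well. Windows with an M-CAT or E-box match are shown, 5′ to 3′ on the strand of the gene, with those matches in capitals.
Ankrd1, chr19:36119915-36120094, minus strand: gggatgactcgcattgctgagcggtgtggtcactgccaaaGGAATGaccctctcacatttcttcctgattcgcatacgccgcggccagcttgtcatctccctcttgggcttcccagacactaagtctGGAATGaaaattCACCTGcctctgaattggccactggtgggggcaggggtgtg
Rasl11b, chr5:74195076-74195255, plus strand: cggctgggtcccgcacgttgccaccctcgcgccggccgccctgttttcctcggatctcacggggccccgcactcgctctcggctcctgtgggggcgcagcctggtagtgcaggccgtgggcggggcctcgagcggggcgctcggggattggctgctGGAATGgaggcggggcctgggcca
Des, chr1:75360042-75360221, plus strand: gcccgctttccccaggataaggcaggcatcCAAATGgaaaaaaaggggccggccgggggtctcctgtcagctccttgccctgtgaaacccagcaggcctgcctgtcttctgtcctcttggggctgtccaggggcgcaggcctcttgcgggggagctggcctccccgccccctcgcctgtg
GGAATG is the M-CAT element read on the other strand. Ankrd1 held 2 of them and Rasl11b 1, so 2 of 5 windows had the element, against 9.76% of 32851 windows of the same length. An E-box stood in 2 of 5 windows, Ankrd1 and Des, against 55.5% of all. No window of the 5 held a CArG box or a MEF2 site, which stood in 1.0% and 2.18% of all. The GC box stood in 3 of 5, those of Enah, Des and Rasl11b, against 21.1% of all. The match of letters is a description and shows no binding.

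Genes of Z-disc proteins and stretch sensors were mostly higher. Of the 30 tested, 28 were higher in AngII plus OA and 16 had an unadjusted p under 0.05, with 0 called. The median difference was 0.52, beside 0.02 over all genes. It stayed between 0.41 and 0.49 under the other scalings, beside -0.05 to 0.00 over all genes. Without replicate 2 it was 0.38, with 12 genes at an unadjusted p under 0.05. Under AngII alone 24 of the 30 were higher, with a median of 0.36, and 2 were called. In 8 of the 30 genes the groups did not overlap, against 0.655% of all genes in that direction. These were Ankrd1, Des, Csrp3, Xirp2, Fhl1, Lmcd1, Smpx and Actn2. Ankrd1 and Des are markers of the comparison, and the list was chosen with earlier results known, so the count is a description.

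Csrp3, the muscle LIM protein that serves as a stretch sensor, was at 598, 566, 514, 367 and 467 FPKM in vehicle and at 754, 1151, 635, 731 and 740 FPKM in AngII plus OA. All treated libraries were above vehicle, and replicate 2 was far above the rest. The difference was 0.66 (0.28 to 1.04), against 0.46 under AngII alone (adjusted p = 0.200). Smpx, a small muscle protein of the costamere, had a narrower spread, at 136, 135, 139, 150 and 140 FPKM in vehicle and 190, 212, 175, 166 and 170 FPKM in AngII plus OA. Its difference was 0.37 in both treated groups.

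Xirp2, an actin-binding repeat protein, was at 40.4, 27.3, 29.5, 31.8 and 17.6 FPKM in vehicle and at 55.7, 130, 53.2, 65.0 and 47.9 FPKM in AngII plus OA, a difference of 1.18 (0.38 to 1.98), or 0.93 without replicate 2. Actn2, the alpha-actinin of the Z-disc, was close to overlap, with vehicle at most at 383 FPKM and treated libraries at 386 to 504 FPKM. Its difference was 0.35 (0.01 to 0.68). Fhl1, a LIM protein that binds titin, was at 26.3 to 48.1 FPKM in vehicle. In AngII plus OA it was at 51.1, 51.2 and 53.1 FPKM in replicates 3, 5 and 4, at 115 in replicate 1 and at 230 in replicate 2, and the difference was 1.11 (0.35 to 1.87), or 0.74 without replicate 2.

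Lmcd1, a LIM protein that acts with calcineurin, was split in a similar way. Vehicle libraries lay between 19.3 and 21.8 FPKM. Treated replicates 3 and 4 were next to them at 21.9 and 22.7 FPKM, and the other 3 were at 40.5, 43.9 and 40.2 FPKM. Flnc, the muscle filamin, overlapped vehicle in 1 library. It was at 14.5 to 24.3 FPKM in vehicle and at 43.8, 65.1, 23.1, 27.1 and 73.7 FPKM in AngII plus OA, with its highest level in replicate 5.

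Among the most abundant members, Tcap, the titin cap protein, was at 1300 ± 392 and 1968 ± 631 FPKM in vehicle and AngII plus OA (difference 0.59, 0.04 to 1.13). Cryab, the small heat shock protein that guards desmin, was at 1023 ± 201 and 1460 ± 422 FPKM (SD, n = 5 each). Its difference was 0.49 (0.05 to 0.94), or 0.34 without replicate 2. Reads of Cryab and of its neighbour Hspb2, which overlaps it on the other strand, may not be told apart.

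Of the 20 small heat shock proteins and muscle chaperones, 10 were higher and 10 lower, with a median of 0.00 that ran from -0.07 to 0.06 without 1 library. The differences ran from -1.10 to 0.98, so the largest change was a fall. Those with the highest rises were small heat shock proteins, and the members given here are among the 10 that were higher. Hspb1 was at 136 to 283 FPKM in vehicle and at 448, 746, 221, 234 and 356 FPKM in AngII plus OA, and overlapped vehicle in 2 libraries. Hspb6 was at 224 to 263 FPKM in vehicle and at 347, 607, 341, 356 and 281 FPKM in AngII plus OA, without overlap and with a difference of 0.67 (0.20 to 1.13), or 0.49 without replicate 2. Hspb6 overlaps other genes on the opposite strand.

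Fetal and hypertrophic genes were less uniform. Of 18 tested, 13 were higher in AngII plus OA and 8 had an unadjusted p under 0.05, with a median of 0.42 (0.65 under AngII alone). The median was 0.24 without vehicle replicate 2, and 5 genes had an unadjusted p under 0.05 without AngII plus OA replicate 2. The groups did not overlap in 4 of them, against 0.655% of all genes in that direction. These 4, Ankrd1, Des, Xirp2 and Fhl1, are also on the Z-disc list, and Ankrd1 and Des are markers of the comparison. The other members overlapped vehicle.

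Acta1, an alpha-actin of skeletal muscle that the fetal heart also makes, was at 126, 116, 129, 89.9 and 74.4 FPKM in vehicle. In AngII plus OA it was at 138, 1266, 476, 638 and 85.8 FPKM, so that 3 libraries were far above vehicle and replicates 1 and 5 were at or next to its level. The difference of 1.69 had a wide interval (0.33 to 3.05), and was 1.22 without replicate 2 and 2.18 without replicate 5. Under AngII alone Acta1 was at 260 to 1793 FPKM and rose by 2.96 (adjusted p = 0.0335). The treated groups differed by -1.27 (-2.63 to 0.09). Reads of the close actin paralogs may be shared.

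Nppb, the gene of B-type natriuretic peptide, was at 756, 693, 323, 316 and 332 FPKM in vehicle and at 667, 1223, 907, 1027 and 860 FPKM in AngII plus OA. One treated library lay within the vehicle range. The difference was 1.04 (0.17 to 1.91), beside 0.95 under AngII alone, which did not pass (adjusted p = 0.256). Nppa, the atrial natriuretic peptide gene, was at 10.5 to 79.4 FPKM in vehicle and 24.7 to 76.4 FPKM in AngII plus OA, with a difference of 0.58 (-0.83 to 1.99) that ran from 0.25 to 0.95 without 1 library. Atrial RNA varied as described for Myl7 above, and its part in the Nppa values was not tested.

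The myosin heavy chains were near their vehicle levels. Myh7, the slow chain of the fetal mouse heart, was at 39.8 ± 5.08 FPKM in vehicle and 48.2 ± 13.8 FPKM in AngII plus OA (0.23, -0.24 to 0.70). Myh6, the adult chain, was at 2981 ± 367 and 3276 ± 202 FPKM (0.14, -0.17 to 0.46). Actc1, cardiac alpha-actin, was at 3320 ± 675 and 3991 ± 999 FPKM (0.25, -0.39 to 0.90; SD, n = 5 each). All 3 intervals include 0. Without replicate 2 the differences of Myh7 and Actc1 were 0.12 and 0.14.

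Several signalling genes of stressed heart muscle, named after their values had been seen, also had high levels. Hbegf, a growth factor that binds the EGF receptor, was at 4.51 to 7.67 FPKM in vehicle and at 13.3, 25.3, 7.61, 7.69 and 25.2 FPKM in AngII plus OA. Replicate 3 was below the highest vehicle library and replicate 4 was next to it. The difference was 1.20 (0.55 to 1.85). Tnfrsf12a, the receptor of the cytokine TWEAK, was at 116, 71.3, 71.1, 40.6 and 40.0 FPKM in vehicle and at 131, 193, 131, 136 and 114 FPKM in AngII plus OA (1.14, 0.47 to 1.80). One vehicle library, replicate 1, reached the level of the lowest treated one. Rcan1, an inhibitor and target of calcineurin, was at 22.9 to 49.2 FPKM in vehicle and at 37.6, 111, 52.6, 57.6 and 63.6 FPKM in AngII plus OA (0.87, 0.30 to 1.44). Cav3, the caveolin of muscle, was at 32.2 to 46.8 and 44.1 to 94.9 FPKM (0.61, 0.21 to 1.01).

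**Figure D2:**
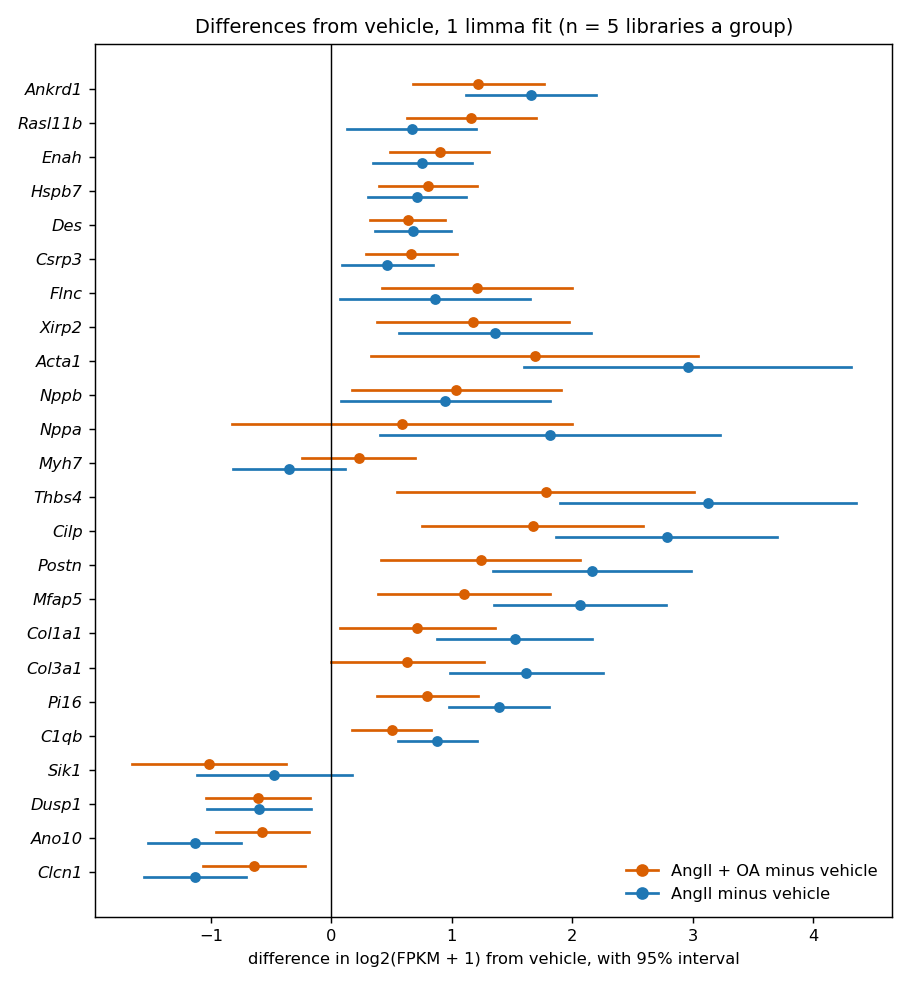
Difference in log2(FPKM + 1) from vehicle with its 95% interval for 24 genes, for AngII plus OA and for AngII, from 1 limma fit with 5 libraries a group. Both comparisons share the vehicle libraries, and for AngII plus OA the adjusted p of every gene was at least 0.926.

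Extracellular matrix genes were mostly higher, but AngII plus OA replicate 5 stood apart. Of 45 tested, 43 were higher in AngII plus OA than in vehicle and 14 had an unadjusted p under 0.05, with 0 called. The median was 0.40, and 0.32 to 0.37 under the other scalings. The groups overlapped in all 45. Under AngII alone 44 were higher with a median of 0.90, and 24 were called.

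The libraries differed in how many of these genes they held above vehicle. In AngII plus OA replicates 1 to 4, 33, 26, 27 and 41 of the 45 matrix genes were above every vehicle library. In replicate 5 the count was 0, as it was for the 24 cell cycle genes and the 9 smooth muscle and pericyte markers tested. That library was the lowest of its group in 35 of the 45, against 29.8% of all genes tested. In it 10 of the 45 were below every vehicle library, against 14.1% of all genes tested. Over all genes tested 18.9%, 13.1%, 9.56%, 24.5% and 9.84% were above every vehicle library in replicates 1 to 5. For the 30 Z-disc genes the counts were 19, 20, 17, 18 and 16, so replicate 5 did not stand apart there. Without replicate 5 the matrix median was 0.49, and 24 genes had an unadjusted p under 0.05. Replicate 5 stood apart outside the matrix list too. Its 6 neutrophil markers summed to 96.5 FPKM, against 7.10 to 23.8 FPKM in the other AngII plus OA libraries and at most 27.2 FPKM in vehicle. Of 25 interferon-stimulated genes 11 were below every vehicle library in replicate 5, against 14.1% of all genes.

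**Figure D3:**
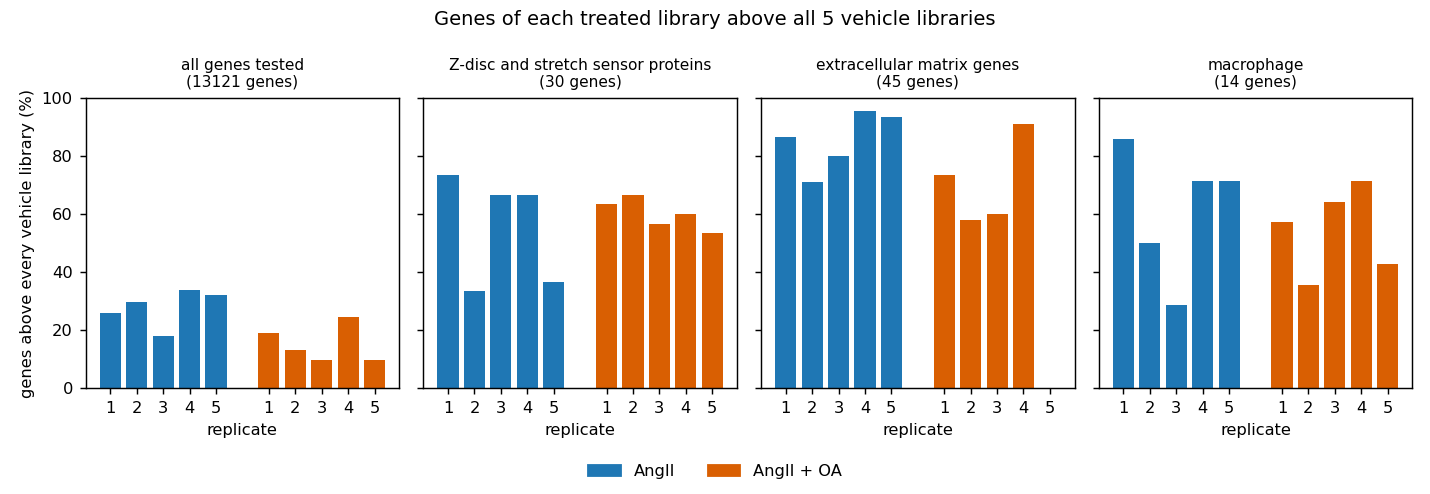
Percent of genes in each AngII and AngII plus OA library that were above all 5 vehicle libraries, for all 13121 genes tested, 30 Z-disc genes, 45 matrix genes and 14 macrophage markers. AngII plus OA replicate 5 has 0 of the matrix genes above vehicle and 16 of the Z-disc genes.

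Postn (ENSMUSG00000027750) encodes periostin, a matricellular protein of activated fibroblasts. It was at 7.68, 13.8, 15.6, 10.8 and 13.6 FPKM in vehicle and at 41.4, 39.9, 32.3, 36.3 and 11.4 FPKM in AngII plus OA. Replicates 1 to 4 lay close together above every vehicle library, and replicate 5 was within the vehicle range. The difference was 1.24 (0.42 to 2.06). AngII alone gave 29.8 to 153 FPKM and a rise of 2.16 (adjusted p = 0.0163). The treated groups differed by -0.92 (-1.75 to -0.10; adjusted p = 0.737).

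Col1a1 and Col3a1 encode the chains of the main fibrillar collagens. Col1a1 was at 9.73, 10.7, 11.5, 10.3 and 11.1 FPKM in vehicle and at 19, 24.0, 18.8, 27.6 and 8.05 FPKM in AngII plus OA. Vehicle varied little, and replicate 5 was below it. The difference was 0.71 (0.07 to 1.36), beside a rise of 1.52 under AngII alone (adjusted p = 0.0250). Col3a1 was at 18.5 to 33.3 FPKM in vehicle and at 46.1, 46.5, 42.5, 50.8 and 20.2 FPKM in AngII plus OA, a difference of 0.63 (-0.01 to 1.27) against 1.62 under AngII alone (adjusted p = 0.0165).

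Cilp, a matrix protein that binds TGF-beta, was at 3.48 to 6.64 FPKM in vehicle and at 36.3, 18.4, 17.0, 24.8 and 5.64 FPKM in AngII plus OA (1.67, 0.75 to 2.59). Thbs4, a thrombospondin, was at 1.36 to 4.33 FPKM in vehicle and at 20.7, 17.1, 10.6, 17.3 and 2.60 FPKM in AngII plus OA (1.78, 0.55 to 3.01). Mfap5, a protein of microfibrils, was at 7.90 to 16.6 FPKM in vehicle and at 48.8, 39.1, 25.8, 31.8 and 12.9 FPKM in AngII plus OA (1.10, 0.38 to 1.82). Each of the 3 had 4 libraries above vehicle and replicate 5 inside its range.

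**Figure D4:**
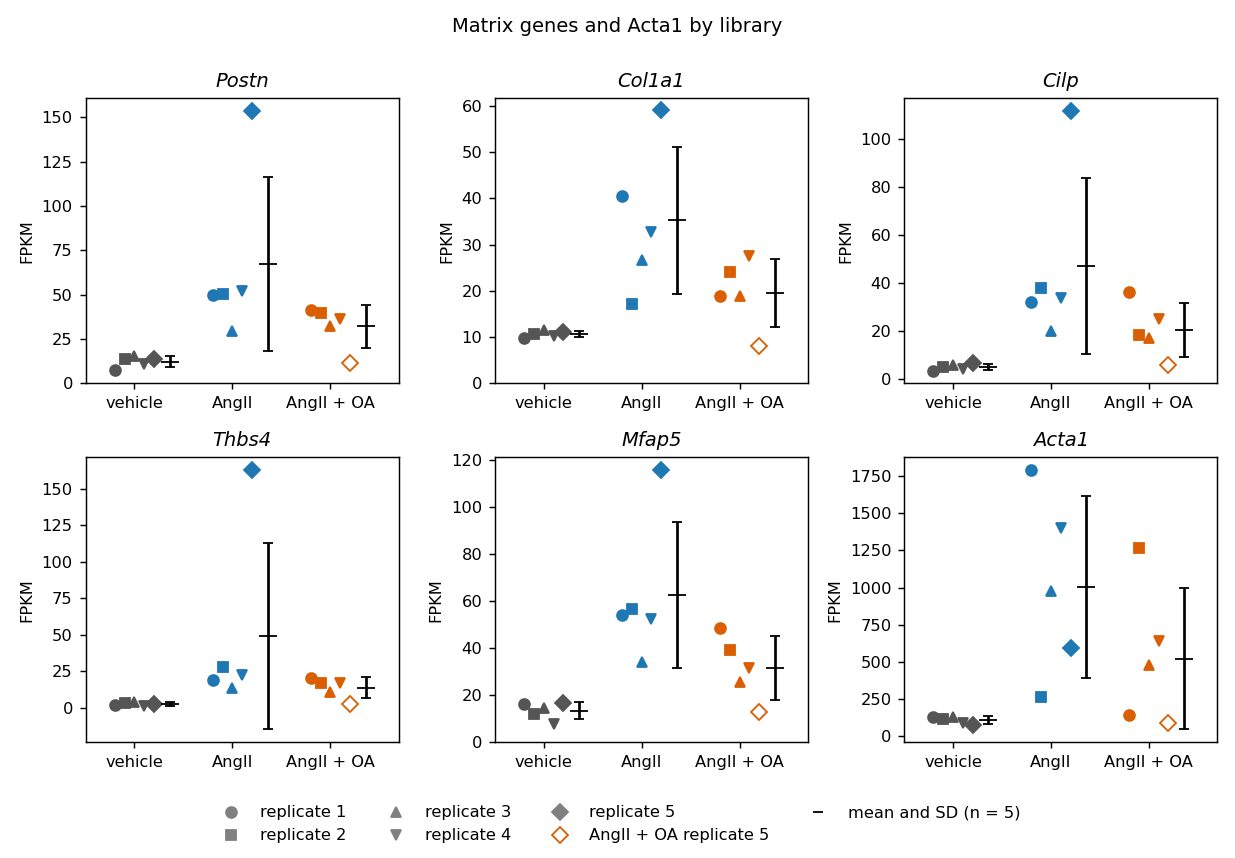
FPKM of 5 matrix genes and of Acta1 in each library of the 3 groups, with the mean and SD of 5 libraries beside each group. In the 5 matrix genes AngII plus OA replicate 5 (open symbol) lies in or below the vehicle range and the other 4 libraries lie above it.

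Loxl1, an enzyme that cross-links elastin and collagen, was at 13.4 to 18.1 FPKM in vehicle and at 25.0, 26.9, 22.7, 30.9 and 16.0 FPKM in AngII plus OA (0.57, 0.19 to 0.94). Timp1, an inhibitor of metalloproteinases, was at 3.57 to 15.9 FPKM in vehicle and at 27.6, 97.9, 11.7, 19.6 and 9.79 FPKM in AngII plus OA, where replicate 2 was far above the rest, and the difference of 1.49 (0.43 to 2.54) was 0.97 without it. The 2 most abundant matrix genes were also higher in their means, with intervals that include 0. Dcn, the proteoglycan decorin, was at 455 ± 139 and 554 ± 168 FPKM (0.29, -0.26 to 0.84), and Sparc, a collagen-binding glycoprotein, at 131 ± 15.4 and 171 ± 36.3 FPKM (0.36, -0.06 to 0.78; SD, n = 5 each). Sparc rose by 1.17 under AngII alone (adjusted p = 0.0138), and AngII plus OA differed from AngII by -0.81 (-1.23 to -0.39; adjusted p = 0.706). Ccn2, a connective tissue growth factor that TGF-beta raises, is not on the matrix list and had its highest treated level in replicate 5. It was at 44.2, 21.6, 84.5, 35.8 and 36.5 FPKM in vehicle and at 68.6, 82.1, 60.3, 90.8 and 114 FPKM in AngII plus OA (0.99, 0.04 to 1.94).

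When the fit held the 10 compared libraries and left each out in turn, a setting chosen after seeing the data, 0 genes were called in 9 of the 10 fits. Without AngII plus OA replicate 5, 9 genes were called, 8 higher and 1 lower. For 8 of these, differences and limma adjusted p-values in that fit are given. They were 2.04 for Cilp, 2.23 for Thbs4 and 1.56 for Postn (0.0126 each), 0.98 for Col1a1 and 1.14 for the latent TGF-beta binder Ltbp2 (0.0212 each). The values were 0.92 for Cthrc1, a fibroblast protein (0.0391), 0.60 for the monocyte chemokine receptor Ccr2 and -1.08 for the kinase Sik1 (0.0415 each). With all 15 libraries in the fit, leaving out replicate 5 gave 0 called genes and a smallest adjusted p of 0.320. Replicate 5 had already stood apart by its low matrix genes. The matrix genes called without it follow in part from that choice and are only a description.

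Pi16, a marker of a fibroblast subset, was the exception among fibroblast genes, because no library overlapped. It was at 19.2, 18.3, 25.0, 23.6 and 26.1 FPKM in vehicle and at 47.1, 31.3, 43.1, 53.0 and 27.9 FPKM in AngII plus OA, and replicate 5 was only just above vehicle. The difference was 0.80 (0.38 to 1.21), against a rise of 1.39 under AngII alone (adjusted p = 0.0114). Of the 9 fibroblast markers tested 9 were higher, with a median of 0.29. Without vehicle replicate 1 or AngII plus OA replicate 1, 7 were higher, with a median of 0.14 and 0.15, and without vehicle replicate 2 the median was 0.18. Their summed level overlapped, at 842 to 1499 FPKM in vehicle and 976 to 2052 FPKM in AngII plus OA. The part of fibroblast RNA in the matrix values was not tested.

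Macrophage markers were moderately higher. Of 14, 12 were higher in AngII plus OA and 2 of these did not overlap, against 0.655% of all genes in that direction. At an unadjusted p under 0.05 stood 5, and the median was 0.34 (0.48 under AngII alone, 5 called). The count of 5 was 3 without vehicle replicate 4 or AngII plus OA replicate 1 or 4. Their summed level was 292 to 419 FPKM in vehicle and 356 to 605 FPKM in AngII plus OA. The 3 chains of complement C1q, made by tissue macrophages, were alike. C1qb was at 47.1, 54.4, 61.1, 54.9 and 58.7 FPKM in vehicle and at 90.5, 61.8, 71.1, 98.0 and 75.1 FPKM in AngII plus OA (0.50, 0.17 to 0.83). C1qa differed by 0.49 (0.14 to 0.84) with overlap in 1 vehicle library, and C1qc by 0.44 (0.12 to 0.76) without overlap. Lyz2, lysozyme, was the most abundant marker, at 121 to 211 FPKM in vehicle and 309, 137, 265, 263 and 259 FPKM in AngII plus OA, where only replicate 2 was at the vehicle level. Here replicate 5 was above every vehicle library in 6 of the 14 markers and replicate 2 in 5, against 9.84% and 13.1% of all genes.

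Immediate early genes, the first transcripts that growth and stress signals switch on, were mostly lower. Of 23, 19 were lower, 5 with an unadjusted p under 0.05, and the median was -0.46 (-0.31 under AngII alone, 0 called). That count of 5 was 1 without vehicle replicate 5 or AngII plus OA replicate 3, 2 without vehicle replicate 4, where the median was -0.31, and 3 without AngII plus OA replicate 1. None was free of overlap. Nr4a1, an orphan nuclear receptor, was at 34.3, 36.0, 17.8, 63.9 and 60.0 FPKM in vehicle and at 7.74, 8.87, 6.18, 16.6 and 41.3 FPKM in AngII plus OA. Replicates 1 to 4 were below every vehicle library and replicate 5 was inside their range. Dusp1, a phosphatase of MAP kinases, was at 43.2 to 59.4 FPKM in vehicle and at 35.1, 45.7, 28.9, 40.3 and 23.1 FPKM in AngII plus OA (-0.61, -1.04 to -0.17), beside -0.60 under AngII alone (adjusted p = 0.150). Klf2, a factor of vessel cells, was at 76.1 ± 23.2 and 51.5 ± 12 FPKM (SD, n = 5 each).

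Sik1 (ENSMUSG00000024042), a salt-inducible kinase, is not on that list and did not overlap. It was at 21.1, 15.4, 17.9, 19.3 and 19 FPKM in vehicle and at 8.08, 7.02, 6.70, 11.8 and 10.4 FPKM in AngII plus OA. The difference was -1.02 (-1.66 to -0.38). Under AngII alone it ranged from 6.47 to 30.0 FPKM, on both sides of vehicle. Per2, a clock repressor, was at 4.37, 1.39, 2.16, 1.75 and 2.99 FPKM in vehicle and at 8.47, 8.17, 3.12, 4.03 and 6.26 FPKM in AngII plus OA, with overlap in 1 vehicle library (0.98, 0.37 to 1.58). Of 24 clock and glucocorticoid-responsive genes 15 were higher, with a median of 0.38, or 0.23 and 0.25 without vehicle replicate 2 or 5. The hour of tissue collection is not given in the labels, and its part in these values was not tested.

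Genes that handle fatty acids were near their vehicle levels. Of 33 genes of oleic acid use, PPAR targets and lipid droplets, 23 were higher with a median of 0.06, and the median was -0.03 with FPKM rescaled without mitochondrially encoded genes. Without vehicle replicate 2 or 5 it was 0.03. At an unadjusted p under 0.05 stood 1 higher and 1 lower gene of the list. Fabp3, the fatty acid binding protein of heart muscle, was at 2839 ± 348 and 3231 ± 236 FPKM (0.19, -0.14 to 0.52), and Lpl, lipoprotein lipase, at 448 ± 37.7 and 488 ± 80.1 FPKM (0.11, -0.13 to 0.36). These intervals leave room for differences of up to 0.52 and 0.36.

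The PPAR targets Pdk4, Ucp3 and Angptl4 varied more within groups than between them. Pdk4, the kinase that shuts pyruvate out of oxidation, was at 141, 20.7, 162, 71.3 and 19 FPKM in vehicle and at 119, 75.2, 89.8, 64.2 and 31.5 FPKM in AngII plus OA (0.26, -0.97 to 1.48). Ucp3, a mitochondrial carrier, was at 6.57 to 21.8 and 4.80 to 27.2 FPKM (-0.28, -1.47 to 0.90). Angptl4, an inhibitor of lipoprotein lipase, was at 1.41 to 7.95 and 1.68 to 11.9 FPKM (0.44, -0.70 to 1.57). Without replicate 2 the Angptl4 difference was 0.14. Without 1 library the Pdk4 difference ran from -0.14 to 0.62 and that of Ucp3 from -0.62 to -0.05. The treated groups differed by -1.03 (-2.26 to 0.19) for Pdk4 and -1.11 (-2.24 to 0.03) for Angptl4.

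Genes of energy metabolism showed small differences whose direction moved with the scaling. Of 23 genes of beta-oxidation 16 were higher (median 0.03), and 5 to 12 under the other scalings. Without vehicle replicate 2 or 5, 9 were higher (median -0.04), and without AngII plus OA replicate 1, 11 (median -0.01). Of 30 nuclear subunits of oxidative phosphorylation 27 were higher (median 0.12), and 13 to 24 under the other scalings. The median was 0.04 without vehicle replicate 4 and 0.06 without AngII plus OA replicate 5. Under AngII alone it was -0.11. In AngII replicate 2, 18 of the 30 were below every vehicle library, against 33.2% of all genes. In AngII replicate 5, 13 of the 30 were, against 11.1% of all genes. The count was 0 in AngII replicates 1, 3 and 4. Ech1, an isomerase of unsaturated fatty acid breakdown, was at 584 ± 46.1 FPKM in vehicle and 594 ± 99.1 FPKM in AngII plus OA (0.01, -0.28 to 0.30). It was at 423 ± 63.1 FPKM under AngII alone (SD, n = 5 each), and the treated groups differed by 0.49 (0.20 to 0.78; adjusted p = 0.706). Acadl, the long-chain acyl-CoA dehydrogenase, differed from vehicle by 0.20 (-0.05 to 0.45), and the respiratory subunit Cox6a2 by 0.21 (-0.30 to 0.71), which ran from -0.06 to 0.32 without 1 library.

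**Figure D5:**
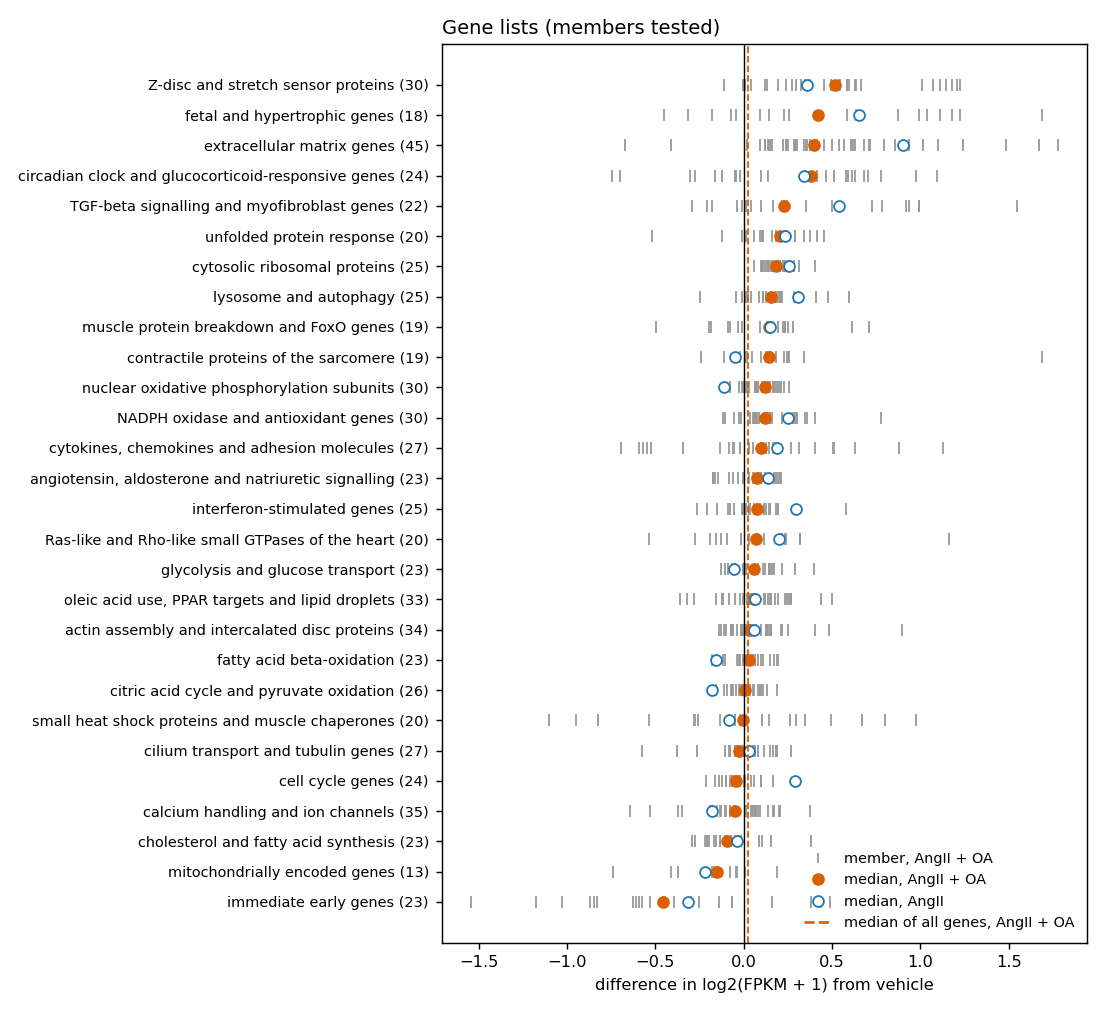
Differences from vehicle in log2(FPKM + 1) for the tested members of 28 gene lists under AngII plus OA (ticks), with the median of each list under AngII plus OA (filled) and under AngII (open). The Z-disc list has a median of 0.52, the matrix list 0.40 and the immediate early list -0.46, and the dashed line marks the median of all genes, 0.02.

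The 12 genes with the smallest p and a symbol were the 5 markers above and 7 others, and in none of them did the groups overlap. Bambi, a decoy receptor of TGF-beta ligands, was at 2.21 to 2.72 FPKM in vehicle and at 5.0, 5.48, 3.57, 3.62 and 4.37 FPKM in AngII plus OA (0.64, 0.31 to 0.97). Vehicle libraries were tight and all treated libraries were clear of them. Cystm1, a small membrane protein, was at 10.9 to 14.5 and 15.4 to 23.1 FPKM (0.52, 0.27 to 0.78), and rose by 0.54 under AngII alone (adjusted p = 0.0368). Otulin, which removes linear ubiquitin chains, was at 9.62 to 15.1 and 15.3 to 26.1 FPKM (0.61, 0.30 to 0.93), with a rise of 0.68 under AngII alone (adjusted p = 0.0335). It overlaps Ank on the opposite strand.

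Gcnt1, an enzyme of O-glycan branching, was at 0.898 to 1.05 FPKM in vehicle and 1.35 to 1.92 FPKM in AngII plus OA (0.47, 0.23 to 0.70). Crybb1, a lens crystallin gene, was lower, at 1.75, 3.10, 1.83, 1.78 and 1.36 FPKM in vehicle and 1.04, 0.706, 0.797, 1.30 and 0.894 FPKM in AngII plus OA (-0.59, -0.89 to -0.29). It fell by 0.60 under AngII alone (adjusted p = 0.0488). The rest were noncoding transcripts at low levels. Gm44877, which lies antisense to Tmem86b, was at 0 to 1.09 FPKM in vehicle and 1.09 to 1.97 FPKM in AngII plus OA. Snora41, a small nucleolar RNA inside Eef1b2, was at 1.48 to 3.70 and 0 to 1.14 FPKM. Reads of these 2 and of their overlapping genes cannot be told apart here.

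Among genes that fell under AngII alone, 3 are given here that were named after their values had been seen. Ano10, a membrane protein of the anoctamin family, was at 9.16, 12.4, 12.4, 12.5 and 9.96 FPKM in vehicle, at 3.60 to 5.81 FPKM in AngII and at 9.53, 4.79, 6.13, 6.02 and 11.1 FPKM in AngII plus OA. Replicates 1 and 5 were inside the vehicle range and the others were below it. The difference from vehicle was -0.57 (-0.96 to -0.19), and that from AngII 0.56 (0.18 to 0.95; adjusted p = 0.706). BB218582 was at 10.6 to 14.2 FPKM in vehicle, 5.80 to 7.28 FPKM in AngII and 8.20 to 11.8 FPKM in AngII plus OA, where the difference from AngII was 0.52 (0.28 to 0.76) with the smallest adjusted p of that comparison, 0.574. Clcn1, the chloride channel of muscle, was at 1.16 to 4.14, 0.292 to 0.881 and 0.888 to 1.73 FPKM in the 3 groups, and differed from vehicle by -0.64 (-1.07 to -0.22). All 3 were between vehicle and AngII in their mean level. Genes picked for a fall under AngII tend to lie nearer vehicle in another group, so that position is only a description.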

How the data were processed

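The authors deposited 1 table of FPKM for 15 ventricle libraries, grouped by sample title and design text. Reads were aligned with HISAT2 2.0.4 to a build named mm8, per the submitters' processing notes. Which read counter, annotation, strand setting and program gave the FPKM is not given in the sources used here. Symbols came from GENCODE M21 (36464 of 36653 identifiers). That annotation belongs to another build, so no coordinates of the table's genes are printed and those of the promoters are RefSeq's.

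Steps in the low FPKM values gave denominators of 24.5 to 28.3 M, with 91.0% to 92.2% of low values within 0.02 of a whole read. Between 10990 and 11528 genes reached 1 FPKM in a library. All replicate pairs differed by more than sampling noise (chi-square of at least 32.9 per degree of freedom), and each library counted once.

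Limma 3.58.1 in R 4.3.3 was fitted to log2(FPKM + 1) with an intensity trend, all 15 libraries and group as the only term, and Benjamini-Hochberg adjustment over 13121 genes (called at an adjusted p under 0.05, 2-sided). Differences on this scale understate the fold of low genes. The filter left out 23532 genes, of which 7657 were listed at 0 in every library. Grin3b (mean 0.49996 FPKM) lay just outside it and Slfn4 (0.50007 FPKM) just inside. The procedure was tested on simulated data.

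Named genes were the 5 markers, the 12 smallest p, the 2 most abundant members of each list described, and fixed hypertrophy, matrix and PPAR genes with the 6 largest AngII changes. Csrp3, Flnc, Xirp2, Smpx, Fhl1, Lmcd1, Actn2, Rcan1, Hbegf, Tnfrsf12a, Cav3, Hspb1, Hspb6, Sik1, Nr4a1, Per2, Cilp, Loxl1, Mfap5, Ltbp2, Cthrc1, Ccr2, Pi16, C1qb, C1qc, Ano10, BB218582 and Clcn1 were added after their values had been seen, where the rule did not already name them. Some genes are not reported here. The members and lists were chosen with earlier results of these data known. Alternatives covered the pseudocount, filter, scaling, libraries in the fit, weights, trend, replicate block and each library left out.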

Additional observations from a re-analysis of the deposited data

Results flagged for a closer look

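In 18 of 140 sets of 5 libraries, 1 value lay far from the other 4 by Dixon's criterion, where chance gives about 1 in 20. Of these, 8 were values of AngII plus OA replicate 2. They were Des at 918 FPKM (the next library was at 595), Cryab at 2183 (1356), Csrp3 at 1151 (754), Xirp2 at 130 (65.0), Tnfrsf12a at 193 (136), Timp1 at 97.9 (27.6) and Hspb6 at 607 (356). The low value was Lyz2, the macrophage lysozyme, at 137 FPKM where the next library was at 259.

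In AngII plus OA replicate 5 the small GTPase gene Rasl11b was high at 31.2 FPKM (next 16.2), and the collagen gene Col3a1 was low at 20.2 FPKM (next 42.5). AngII plus OA replicate 3 was low for the myosin gene Myh6 at 2929 FPKM (next 3313), and replicate 4 for Acadl at 424 FPKM (next 478).

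Among vehicle libraries, Gcnt1 was high in replicate 3 at 1.05 FPKM (next 0.929), Crybb1 in replicate 2 at 3.10 FPKM (next 1.83), and Hbegf and Hspb6 in replicate 1 at 7.67 FPKM (next 5.34) and 263 FPKM (next 231). Ech1 and Lmcd1 were low in replicate 5, at 505 FPKM (next 590) and 19.3 FPKM (next 21.5).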

How the results depend on the processing

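Outside the fits added after seeing the data, no alternative called a gene. A pseudocount of 0.1, a mean FPKM of at least 5 (5833 genes), no filter (28996 genes), the 3 other scalings, only the 10 libraries compared, array weights, no trend and each library left out gave 0 called genes, with 207 to 973 at an unadjusted p under 0.05. The 10 libraries alone gave 686 and array weights 758, against 441. The fit without AngII replicate 2 gave 648. Leaving out 1 compared library gave 292 to 520, and smallest adjusted p-values of 0.320 or more. Of those added fits, the one of the 10 libraries without AngII plus OA replicate 5 called 9 genes, 8 higher and 1 lower, and the 9 other such fits called 0. The cause was not tested. The difference in mitochondrial share was -4.64 percentage points, and -5.79 to -3.69 without 1 library. The labels do not say whether replicate numbers pair the libraries, and pairing was not settled here. Correlations of same-numbered deviations were 0.049, -0.0055, 0.256, -0.350 and 0.259, and a replicate block gave 0 called genes and 438 at an unadjusted p under 0.05. Of 69 genes, 64 kept the sign of their difference in all 31 other settings. The exceptions were Lpl (1 setting), Cox6a2 and Myl7 (2 each), Pdk4 (4) and Ech1 (9).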

Other observations

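Other gene groups were nearer to their vehicle levels. All 25 cytosolic ribosomal protein genes tested were higher in AngII plus OA, by a median of 0.18 (0.26 under AngII alone), and 20 to 25 were higher under the other scalings. Without vehicle replicate 4, 19 were higher, with a median of 0.03. Of 20 genes of the unfolded protein response 17 were higher (median 0.21), and 13 without vehicle replicate 2 (median 0.09). Of 25 lysosome and autophagy genes 22 were higher (median 0.16). Cell cycle genes had a median of -0.04, with 17 of 24 lower, where AngII alone had 0.29 with 20 higher and 2 called. AngII plus OA replicate 5 had 12 of the 24 below every vehicle library, against 14.1% of all genes. Without that library 13 were higher, and without vehicle replicate 2, 15, with a median of 0.01 in both cases. Interferon-stimulated genes had a median of 0.08 with 17 of 25 higher, beside 0.30 with 25 of 25 under AngII alone. Without AngII plus OA replicate 4, 10 were higher, with a median of -0.03, and without vehicle replicate 3, 13, with a median of 0.01. Endothelial markers had a median of 0.00 (0.30 under AngII alone), and -0.06 to 0.03 without 1 library. These comparisons share the vehicle libraries, and no gene of these groups was called in AngII plus OA. Cholesterol and fatty acid synthesis genes were lower in 19 of 23, by a median of -0.10.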
